A study of Homo sapiens with 4 samples.

Results

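The genes described here encode proteins that dock transport vesicles and fuse them with a target membrane. They are the synaptotagmins and synaptotagmin-like proteins, the syntaxins and their binding proteins, the vesicle-side VAMPs, the SNAP proteins, the vesicle proteins SYP, SYN1 to SYN3 and SV2A to SV2C, and the release-site proteins of the complexin, UNC13 and RIMS families. They were taken by a rule on the gene symbol that uses no measured value, though it was chosen with earlier results of these data known. The rule found 75 of the 61806 genes in the table. RNA was sequenced from U118-MG, an established human glioma cell line, in 4 libraries. In the SPNS2 group (2 libraries) the cells carried a lentiviral pCDH-CMV-MCS-EF1-puro vector with SPNS2, which encodes an exporter of the signalling lipid sphingosine 1-phosphate. In the NC group (2 libraries) the cells carried the negative control vector, and the genotype label of both groups is WT. The sources used here do not say whether a group was a clone or a mixed population, or whether its 2 libraries came from separate cultures. The p-values therefore measure the spread between these libraries, which may be technical.

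SNARE proteins sit on opposing membranes and zip into a helical bundle that pulls the membranes together. In neurons, the syntaxin STX1A and the protein SNAP25 on the plasma membrane pair with VAMP2 or VAMP1 on the synaptic vesicle. UNC13 proteins prepare the complex, and synaptotagmins couple fusion to calcium. Other cells use related members, among them SNAP23, STX4 and VAMP3 at the cell surface and STX7, STX8, STX17 and VAMP8 in endosomes, lysosomes and autophagosomes.

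Start regions are shown for 4 called genes with a single listed start, a pair that rose in the SPNS2 cells (SYT14 and UNC13A) and a pair that fell (SYT1 and VAMP5). A gene was called, and is said to have risen or fallen, when its adjusted p in edgeR's quasi-likelihood test was under 0.05. The sequences are from RefSeq (GRCh38.p14), begin 250 bases before the listed start and stop before the first exon annotated in the window. Capitals mark the letters of 5 motifs, searched on both strands. They are the GC box with the letters GGGCGG, the CCAAT box, the TATA box in its form TATAAA, the E-box written as CACGTG and the cAMP response element TGACGTCA. The SYT14 stretch is chr1:209937967-209938173 on the plus strand and that of UNC13A chr19:17688366-17688604 on the minus strand. That of SYT1 is chr12:78864524-78864668 on the plus strand, inside the annotated gene, and that of VAMP5 chr2:85584181-85584407 on the plus strand.
SYT14: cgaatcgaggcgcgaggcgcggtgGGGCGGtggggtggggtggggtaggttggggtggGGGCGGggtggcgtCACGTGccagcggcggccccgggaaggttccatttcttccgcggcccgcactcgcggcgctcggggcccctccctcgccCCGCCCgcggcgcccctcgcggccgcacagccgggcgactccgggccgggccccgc
UNC13A: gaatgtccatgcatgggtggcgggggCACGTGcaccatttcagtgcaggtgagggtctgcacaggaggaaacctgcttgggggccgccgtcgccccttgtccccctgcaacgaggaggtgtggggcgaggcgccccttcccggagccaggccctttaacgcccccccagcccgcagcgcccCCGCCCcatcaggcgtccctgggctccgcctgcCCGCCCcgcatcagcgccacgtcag
SYT1: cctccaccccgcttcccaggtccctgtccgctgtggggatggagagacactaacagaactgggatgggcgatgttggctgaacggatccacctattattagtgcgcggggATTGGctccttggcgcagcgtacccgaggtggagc
VAMP5: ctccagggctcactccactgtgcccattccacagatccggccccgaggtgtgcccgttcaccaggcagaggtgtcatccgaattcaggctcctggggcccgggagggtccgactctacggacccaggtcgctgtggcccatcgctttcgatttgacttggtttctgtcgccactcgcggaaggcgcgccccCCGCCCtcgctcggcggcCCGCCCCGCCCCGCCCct
In the whole 250-base windows, SYT14 had 4 GC boxes and 1 E-box, and UNC13A had 2 GC boxes and 1 E-box. SYT1 had 1 GC box and 2 CCAAT boxes, and VAMP5 had 4 GC boxes, some of which share a base with the next. Of all 35116 listed windows of this length, with several for some genes, 42.6% held a GC box, 32.0% a CCAAT box, 10.7% a TATA box, 6.34% an E-box and 1.65% a cAMP response element. No other called member with a listed window held an E-box. Of the members not called, SNAP29, STX2, STX4, STX6, STX18 and STXBP2 held an E-box in at least 1 window. So did CPLX3 and SYT6, which were not tested. RIMS3, SV2A, SYP and VAMP1 were also called with a single listed window and are not shown. CG dinucleotides numbered 39 and 21 in the windows of SYT14 and UNC13A and 13 and 24 in those of SYT1 and VAMP5, against a median of 11 over all windows. In this count the pair that rose and the pair that fell overlapped.

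SPNS2 itself, the gene carried by the vector, had 7381 and 8224 counts in SPNS2, against 42 and 47 counts in NC. The libraries held 31353373 and 34125159 counts in SPNS2 and 31513400 and 32992150 counts in NC. Of all 17853 genes with enough counts to be tested, 23.4% were called, 12.1% higher and 11.3% lower in SPNS2, and the median over them was -0.0085 on the log2 scale. Levels are in CPM, counts scaled to a common library total with TMM factors, fold changes are SPNS2 over NC, and errors of levels are SD over the n = 2 libraries of a group. In bulk RNA, fewer cells with a transcript and less of it per cell cannot be told apart. The glioma markers VIM and CD44 were abundant, at 6524 ± 428 CPM in SPNS2 and 4392 ± 497 CPM in NC for VIM and 393 ± 38.4 CPM in SPNS2 and 335 ± 0.0846 CPM in NC for CD44. Of the other 7 genes of that marker list, which also holds astrocyte genes, SOX9 was at 83 ± 0.724 CPM in SPNS2 and 70.7 ± 7.55 CPM in NC. SLC1A3 rose, at 19 ± 1.65 CPM in SPNS2 and 1.02 ± 0.143 CPM in NC, NES fell, at 10.5 ± 0.592 CPM in SPNS2 and 18.8 ± 2.2 CPM in NC, and GFAP, S100B, AQP4 and ALDH1L1 had at most 8 counts in a library.

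Of the 75 genes, 50 were tested, and 10 rose and 8 fell in the SPNS2 cells by edgeR. That is 36% of those tested, against the 23.4% called among all tested genes. Among genes best known from neuronal release, SNAP25, UNC13A, SYP and SV2A rose, SYT1 and RIMS1 fell, STX1A and VAMP2 were not called, and CPLX1 and SYN1 were not tested. Of 10 constitutive and endosomal fusion genes, VAMP7 rose, STX17 fell and 8 were not called. By family, 2 of 7 tested synaptotagmins rose and 2 fell, and of 7 tested VAMPs 1 rose and 2 fell. The median log2 fold change of the 50 was 0.14 and their median size without sign was 0.47, against 0.38 over all tested genes. Only 43 of the 50 reached the count minimum in both groups, and 8 of these rose and 7 fell. RIMS3, for example, was tested because of its SPNS2 libraries and RIMS1 because of its NC libraries. Whether they were tested thus rested on the group where they were higher. Of the 18 called members, 13 had a start region in the RefSeq table.

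**Figure D1:**
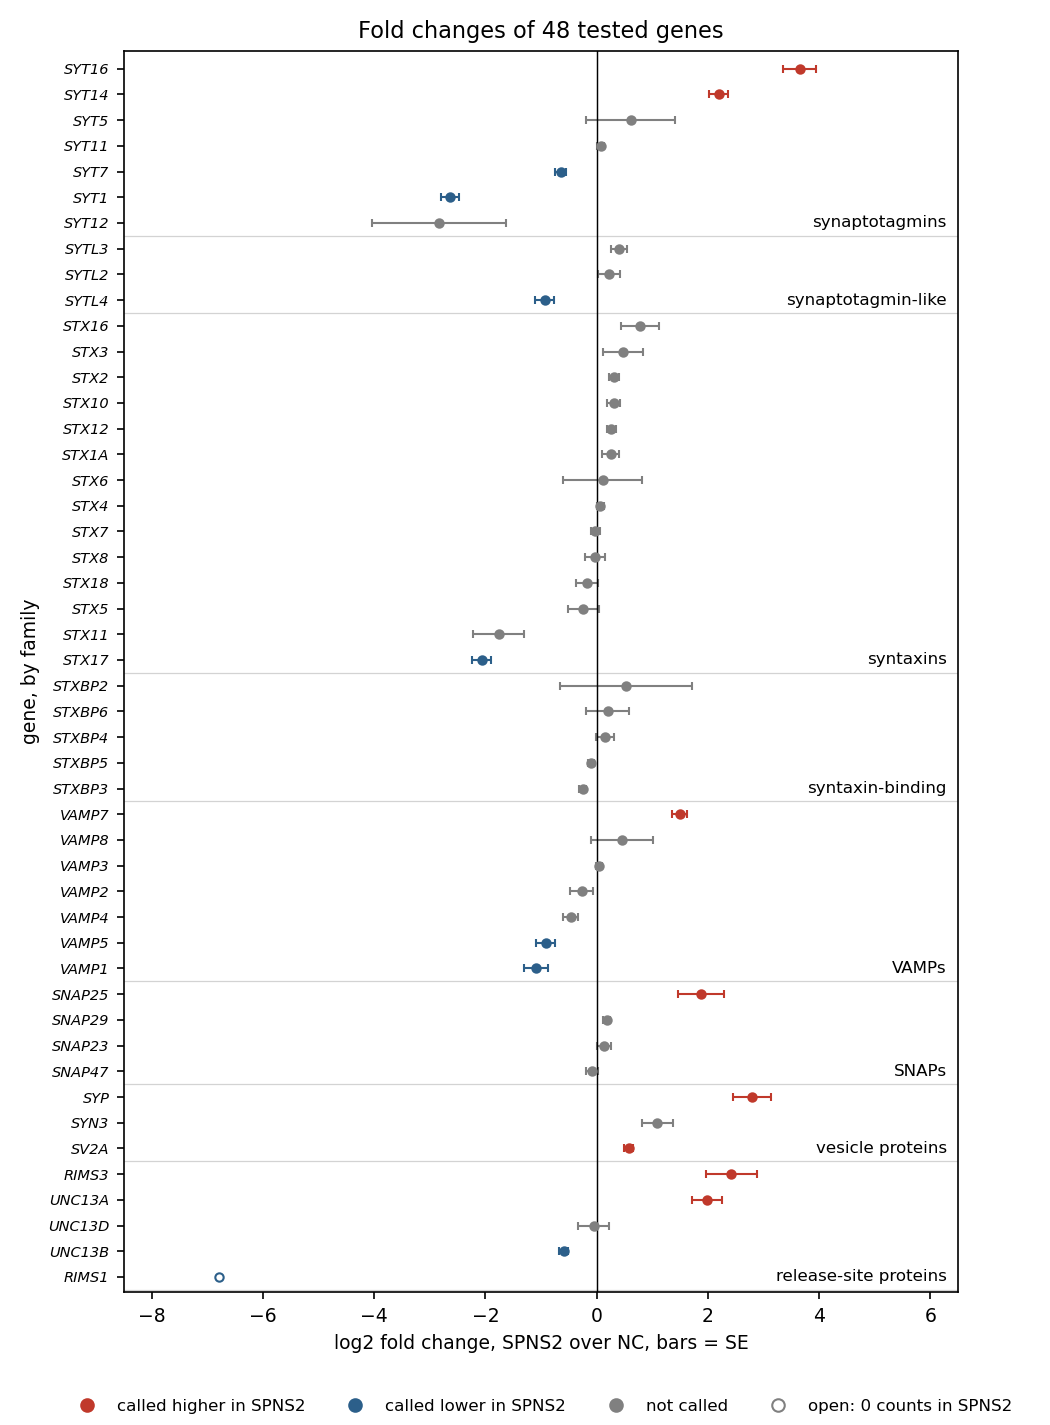
Log2 fold change of SPNS2 over NC (horizontal axis) for 48 of the 50 tested genes, grouped by family down the page, with bars for the SE of the edgeR fit; red genes were called higher in SPNS2, blue genes lower and grey genes neither. SYT16 stands at 3.65 and STX17 at -2.07; the open symbol is RIMS1, which had 0 counts in SPNS2, so that its fitted position depends on the fitting constant.

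Of the genes of the neuronal complex at the plasma membrane, SNAP25 rose and STX1A was not called. SNAP25, which contributes a pair of helices to the SNARE bundle, was at 7.89 and 12.9 CPM in SPNS2, against 3.65 and 2.02 CPM in NC (log2 fold change 1.87, SE 0.41, edgeR adjusted p = 0.0399). The groups did not overlap, but the libraries of a group differed 1.63-fold in SPNS2 and 1.81-fold in NC. The call was lost with any single library left out, SPNS2 replicate 1 or 2 or NC replicate 1 or 2 (log2 1.48 to 2.36, edgeR adjusted p 0.0595 to 0.116). UNC13A, a priming factor of synaptic vesicles, was at 7.05 and 6.5 CPM in SPNS2, against 1.37 and 2.05 CPM in NC (log2 fold change 1.98, SE 0.27, edgeR adjusted p = 0.0137). Its groups lay apart, and its call was lost without SPNS2 replicate 1 (log2 1.94, edgeR adjusted p = 0.0576) and without SPNS2 replicate 2 (2.04, edgeR adjusted p = 0.0532). STX1A, a plasma membrane syntaxin of neurons, was at 43.9 and 39.1 CPM in SPNS2 and 30.3 and 39.5 CPM in NC, with overlapping groups (log2 fold change 0.25, SE 0.16, edgeR adjusted p = 0.33). STX4, a syntaxin of the plasma membrane in most tissues, was at 69 and 71.8 CPM in SPNS2 and 68.3 and 66.1 CPM in NC (log2 fold change 0.068, SE 0.068, edgeR adjusted p = 0.521). The vesicle-side partner VAMP2 was at 14.4 and 11.2 CPM in SPNS2 and 17.2 and 13.6 CPM in NC, with overlapping groups (log2 fold change -0.27, SE 0.2, edgeR adjusted p = 0.399).

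Of the vesicle proteins, SYP and SV2A rose. SYP, synaptophysin, the common marker of synaptic vesicles, had 82 and 75 counts in SPNS2, against 12 and 11 counts in NC (log2 fold change 2.80, SE 0.34, edgeR adjusted p = 0.0104). SV2A, a vesicle glycoprotein known as the binding site of the drug levetiracetam, was at 81.3 and 75.5 CPM in SPNS2, against 54.6 and 50.7 CPM in NC (log2 fold change 0.57, SE 0.082, edgeR adjusted p = 0.0148). For both genes the 2 groups lay apart. The SYP call was lost without NC replicate 1 (log2 2.89, edgeR adjusted p = 0.0532), NC replicate 2 (2.70, 0.0541) or SPNS2 replicate 1 (2.68, 0.0513). The SV2A call was lost without NC replicate 1 (log2 0.63, edgeR adjusted p = 0.0555), NC replicate 2 (0.52, 0.0687) or SPNS2 replicate 1 (0.53, 0.0608). SYN3, a synapsin, was at 3.57 and 2.61 CPM in SPNS2 and 1.43 and 1.46 CPM in NC and was not called (log2 fold change 1.09, SE 0.28, edgeR adjusted p = 0.0593). SYN1, SYN2, SV2B and SV2C had at most 11 counts in any library. Per kilobase of exon, SV2A was at 16.3 ± 0.861 CPM per kb in SPNS2 and 10.9 ± 0.562 CPM per kb in NC, while SYP was at 0.471 ± 0.0564 CPM per kb in SPNS2 and 0.0672 ± 0.00643 CPM per kb in NC.

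**Figure D2:**
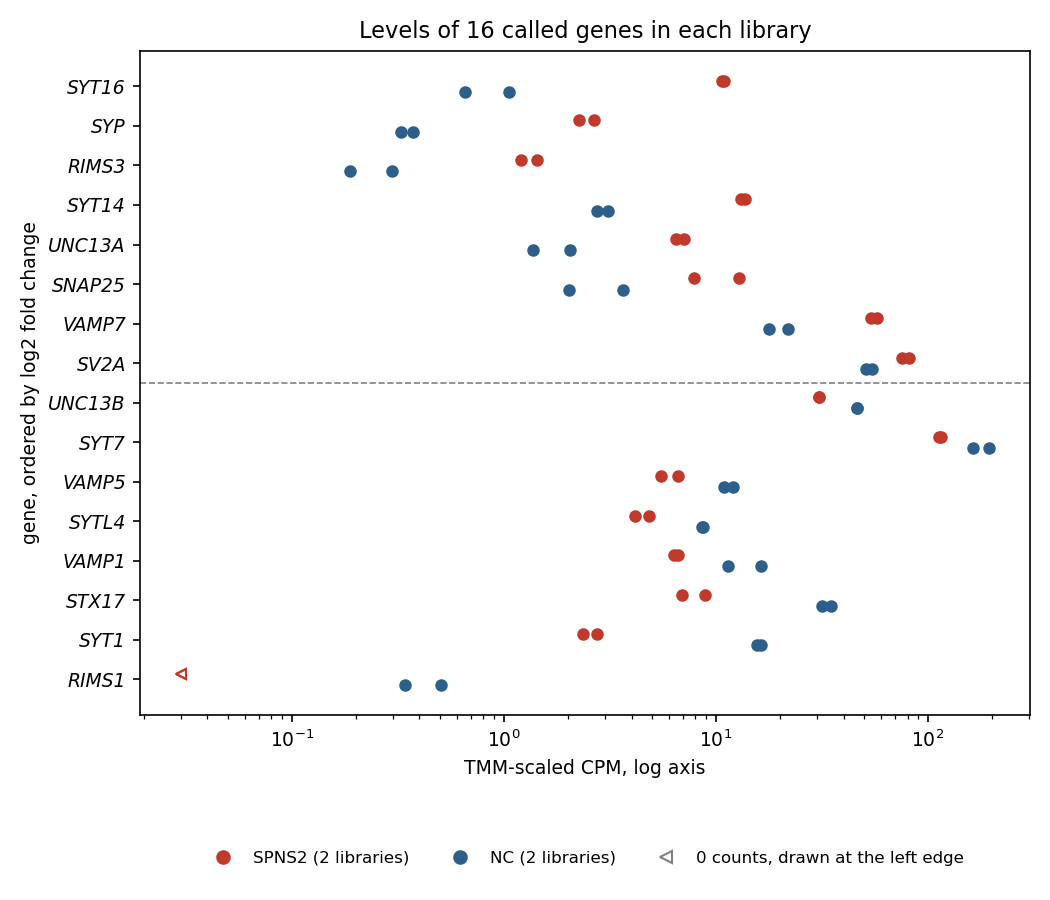
Level of 16 of the 18 called genes in every library, in TMM-scaled CPM on a log axis, with SPNS2 libraries in red and NC libraries in blue; genes above the dashed line rose in SPNS2 and those under it fell. The 2 libraries of a group lie close together for SV2A and UNC13B and farther apart for SNAP25; the open triangle at the left edge marks the 0 counts of RIMS1 in SPNS2.

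At the release site the members went different ways. RIMS3, a short RIM protein, had 37 and 48 counts in SPNS2, against 6 and 10 counts in NC (log2 fold change 2.43, SE 0.47, edgeR adjusted p = 0.0298). RIMS1, the large active zone scaffold, had 0 and 0 counts in SPNS2, against 11 and 17 counts in NC, at least 9.11-fold lower when 3 counts are taken as the floor over the SPNS2 group (edgeR adjusted p = 0.044). Such a floor covers counting error only. The calls of both were lost with any single library left out, SPNS2 replicate 1 or 2 or NC replicate 1 or 2 (edgeR adjusted p 0.0811 to 0.111 for RIMS3 and 0.0939 to 0.193 for RIMS1). The RIMS1 call was lost without a count filter as well (edgeR adjusted p = 0.072), and a minimum mean of 1 CPM removed both genes. UNC13B, a more widely expressed priming factor, fell to 30.6 and 30.8 CPM in SPNS2, against 46.4 and 46 CPM in NC (log2 fold change -0.59, SE 0.082, edgeR adjusted p = 0.0139). The 2 libraries of each group nearly coincided, and the log2 fold change stayed at -0.60 to -0.57 with each library left out. This call too was lost with any single library left out, SPNS2 replicate 1 or 2 or NC replicate 1 or 2. In those fits fewer genes were called over all tested genes as well. UNC13D, which primes the granules of immune cells, was at 2.09 ± 0.0576 CPM in SPNS2 and 2.17 ± 0.462 CPM in NC (edgeR adjusted p = 0.91). Per kilobase of exon, UNC13A made up 23.4% ± 1.18 in SPNS2 and 5.09% ± 1.47 in NC of the UNC13 transcripts. UNC13B made up 66.1% ± 0.71 in SPNS2 and 85.6% ± 0.415 in NC. Of the complexins, which bind the assembled complex, CPLX2 and CPLX4 had no counts, and CPLX1 and CPLX3 were seen in 1 NC library each, with 5 and 19 counts. RIMS2 had 2 and 6 counts in SPNS2 and 6 and 15 counts in NC and UNC13C 0 and 2 counts in SPNS2 and 0 and 0 counts in NC, RIMS4 had none, and none of the 3 was tested.

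The synaptotagmins moved in both directions. SYT1, the fast calcium sensor of synaptic release (ENSG00000067715, chromosome 12 of hg38, 78863993 to 79452008), fell to 2.37 and 2.76 CPM in SPNS2, against 16.2 and 15.7 CPM in NC (log2 fold change -2.63, SE 0.17, edgeR adjusted p = 0.00273). SYT14 and SYT16, atypical members that do not bind calcium, rose. SYT14 (chromosome 1, 209938174 to 210171389) was at 13.6 and 13.1 CPM in SPNS2, against 2.75 and 3.09 CPM in NC (log2 fold change 2.19, SE 0.16, edgeR adjusted p = 0.00364). SYT16 (chromosome 14, 61811974 to 62112550) was at 10.9 and 10.7 CPM in SPNS2, against 1.06 and 0.654 CPM in NC (log2 fold change 3.65, SE 0.29, edgeR adjusted p = 0.00423). For SYT1, SYT14 and SYT16 the groups lay far apart and the calls held with each library left out. SYT7, a high-affinity calcium sensor known from slow release and lysosome exocytosis, fell to 113 and 116 CPM in SPNS2, against 164 and 194 CPM in NC (log2 fold change -0.65, SE 0.1, edgeR adjusted p = 0.0183). Its 100 nearest tested genes on chromosome 11 had a median log2 fold change of -0.40, and with that median taken out SYT7 was at -0.25 and not called (edgeR adjusted p = 0.161). The SYT7 call was also lost without SPNS2 replicate 1 (log2 -0.62, edgeR adjusted p = 0.0799) and without SPNS2 replicate 2 (-0.66, 0.073).

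SYT11, another member that lacks calcium binding, was at 76.5 and 72.9 CPM in SPNS2 and 71.4 and 70.3 CPM in NC (log2 fold change 0.076, SE 0.066, edgeR adjusted p = 0.464). Per kilobase of exon, SYT7 made up 53.8% ± 1.14 in SPNS2 and 64.5% ± 3.15 in NC of all synaptotagmin transcripts, and SYT11 39.96% ± 1.17 in SPNS2 and 29.1% ± 2.45 in NC. SYT1 made up 1.11% ± 0.123 in SPNS2 and 5.29% ± 0.52 in NC. The shares of SYT14 were 2.69% ± 0.0646 in SPNS2 and 0.45% ± 0.00461 in NC, and those of SYT16 1.99% ± 0.00592 in SPNS2 and 0.123% ± 0.0496 in NC. SYT1 thus stood below both atypical members in the SPNS2 libraries and above both in the NC libraries. SYT12 had 0 and 11 counts in SPNS2 and 47 and 33 counts in NC and was not called (edgeR adjusted p = 0.168), although it was called without SPNS2 replicate 2. SYT5 had 15 and 9 counts in SPNS2 and 12 and 4 counts in NC (edgeR adjusted p = 0.63). The other 10 synaptotagmins were not tested, with at most 9 counts in a library.

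Synaptotagmin-like proteins tether vesicles through RAB27. SYTL4 (granuphilin) fell to 4.16 and 4.86 CPM in SPNS2, against 8.55 and 8.68 CPM in NC (log2 fold change -0.93, SE 0.18, edgeR adjusted p = 0.0279), without overlap, and its call was lost with any single library left out, SPNS2 replicate 1 or 2 or NC replicate 1 or 2 (log2 -1.05 to -0.81, edgeR adjusted p 0.0645 to 0.105). It is uncertain for a further reason: SYTL4 shares 1298 bases of exon, 17.5% of its exon length, with SRPX2 on the opposite strand, which was also called lower at 16.4 CPM in SPNS2, against 27.1 CPM in NC. The strand setting of the counting is not known here, so reads from the shared bases cannot be assigned to either gene with certainty. Other members have this limit too, among them STX1A, SNAP47 and SNAP29. They share 17.9%, 35.3% and 4.54% of their exon length with BUD23, JMJD4 and PI4KA on the opposite strand. SYTL3, the member with the highest level per kilobase, was at 15.3 and 13.2 CPM in SPNS2 and 10.3 and 11.1 CPM in NC (edgeR adjusted p = 0.123). SYTL2 was at 13.2 and 11.1 CPM in SPNS2 and 11.7 and 9.18 CPM in NC (edgeR adjusted p = 0.454). SYTL1 had 0 and 0 counts in SPNS2 and 12 and 4 counts in NC and SYTL5 11 and 10 counts in SPNS2 and 0 and 2 counts in NC, and neither was tested.

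Among the genes of internal membranes, STX17 fell and VAMP7 rose. STX17, the autophagosome syntaxin that acts with SNAP29 and VAMP8 in fusion with lysosomes (ENSG00000136874, chromosome 9 of hg38, 99906633 to 99970341), fell to 6.95 and 8.87 CPM in SPNS2, against 31.5 and 34.9 CPM in NC (log2 fold change -2.07, SE 0.17, edgeR adjusted p = 0.00426). The groups lay far apart, and with each library left out the call held (-2.25 to -1.89). Its 100 nearest tested genes had a median log2 fold change of 0.023. By level per kilobase of exon, STX17 was number 31 of the 75 genes in SPNS2 and number 17 in NC. Its partner SNAP29 was at 88.3 and 84 CPM in SPNS2 and 75.9 and 75.8 CPM in NC (log2 fold change 0.18, SE 0.065, edgeR adjusted p = 0.116), without overlap but not called. VAMP8 had 10 and 17 counts in SPNS2 and 10 and 10 counts in NC (edgeR adjusted p = 0.61).

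VAMP7, a VAMP of late endosomes and lysosomes (ENSG00000124333, X chromosome of hg38, 155881293 to 155943769), rose to 53.6 and 57.4 CPM in SPNS2, against 21.7 and 17.7 CPM in NC (log2 fold change 1.49, SE 0.14, edgeR adjusted p = 0.00528). Both SPNS2 libraries lay above both NC libraries, and the call held with each library left out (1.35 to 1.65). The gene lies in a region shared by the X and Y chromosomes, and how reads matching both copies were counted is not given in the sources used here. By level per kilobase of exon, VAMP7 was number 4 of the 75 genes in SPNS2 and number 16 in NC, and it made up 14.3% ± 0.224 in SPNS2 and 5.29% ± 0.603 in NC of the VAMP transcripts. VAMP3 (cellubrevin), the VAMP of recycling endosomes, held 74.1% ± 0.352 in SPNS2 and 74.9% ± 1.58 in NC. Its level was 292 and 304 CPM in SPNS2 and 291 and 287 CPM in NC (log2 fold change 0.046, SE 0.053, edgeR adjusted p = 0.581), and its sign turned with upper-quartile factors (log2 -0.00060) and with library totals only (-0.010).

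VAMP1 and VAMP5 fell. VAMP1, a synaptobrevin, was at 6.37 and 6.65 CPM in SPNS2, against 16.2 and 11.4 CPM in NC (log2 fold change -1.09, SE 0.22, edgeR adjusted p = 0.0332). The groups did not overlap, but the call was lost without NC replicate 1 (log2 -0.81, edgeR adjusted p = 0.0955), SPNS2 replicate 1 (-1.04, 0.117) or SPNS2 replicate 2 (-1.12, 0.108). With the median of its neighbours, -0.30, taken out it was lost as well (-0.78, edgeR adjusted p = 0.0764). VAMP1 shares 339 bases of exon with TAPBPL on the opposite strand, which was not called. VAMP5 (myobrevin), known from muscle, was at 5.52 and 6.62 CPM in SPNS2, against 12 and 10.9 CPM in NC (log2 fold change -0.91, SE 0.17, edgeR adjusted p = 0.0284). Its groups lay apart, and its call was lost with any single library left out, SPNS2 replicate 1 or 2 or NC replicate 1 or 2 (log2 -1.05 to -0.78, edgeR adjusted p 0.063 to 0.114). VAMP5 lies 2.38 kb from VAMP8 on chromosome 2. VAMP4, of the trans-Golgi network, was at 16.6 and 18.8 CPM in SPNS2 and 22.9 and 26 CPM in NC (log2 fold change -0.47, SE 0.13, edgeR adjusted p = 0.0715). The summed VAMP level per kilobase of exon was 146 ± 4.88 CPM per kb in SPNS2 and 139.6 ± 4.28 CPM per kb in NC.

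**Figure D3:**
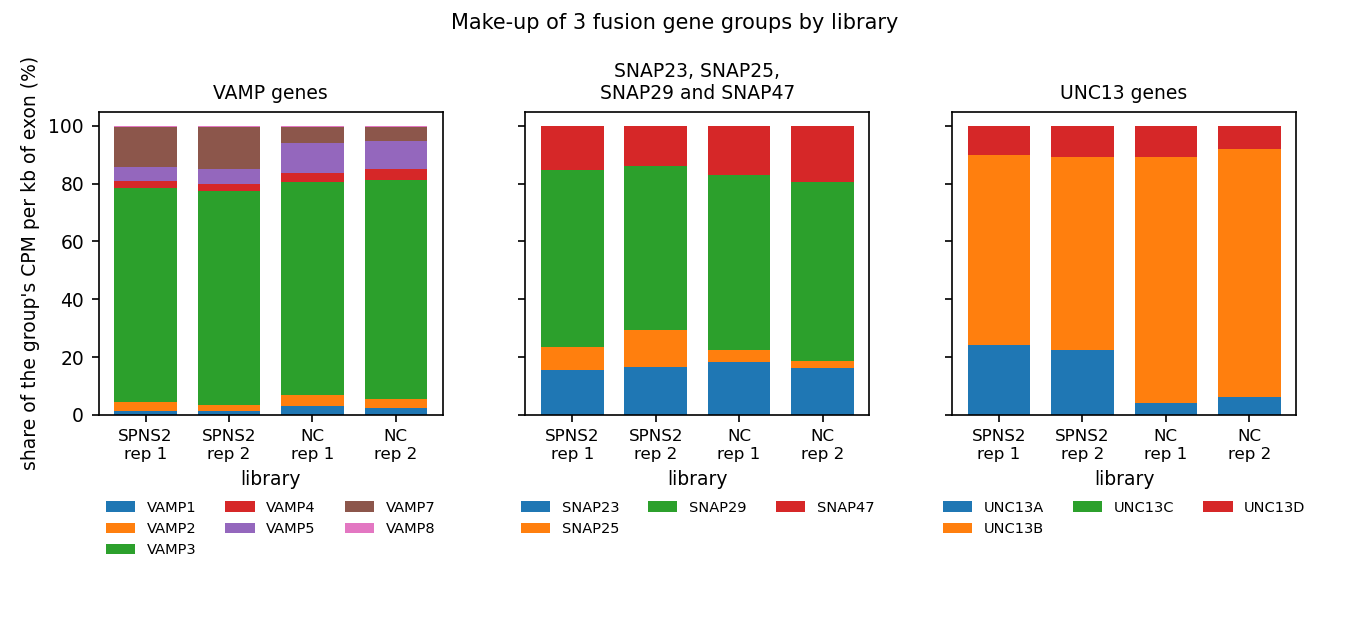
Share of each gene, in percent of the summed CPM per kilobase of exon, among the VAMP genes, 4 SNAP genes and the UNC13 genes, with a stacked bar for each library (SPNS2 left, NC right). VAMP7 takes 14.3% in SPNS2 and 5.29% in NC and UNC13A 23.4% in SPNS2 and 5.09% in NC, while VAMP3, SNAP29 and UNC13B hold the largest shares in all 4 libraries.

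The remaining surface and endosomal members were not called. SNAP23, the SNAP25 relative of most tissues, was at 26.4 and 29.2 CPM in SPNS2 and 27.2 and 23.5 CPM in NC, with overlap (log2 fold change 0.13, SE 0.13, edgeR adjusted p = 0.512), and SNAP47 at 28.3 ± 1.68 CPM in SPNS2 and 29.9 ± 2.03 CPM in NC. SNAP25 held 10.5% ± 3.38 in SPNS2 and 3.37% ± 1.31 in NC of the summed level per kilobase of SNAP23, SNAP25, SNAP29 and SNAP47. SNAP91, taken by its symbol although it is a clathrin adaptor and no SNARE, had 0 and 4 counts in SPNS2 and 30 and 4 counts in NC and was not tested. STXBP3 (Munc18c), the partner of STX4, was at 74 and 73.5 CPM in SPNS2 and 87.1 and 88.1 CPM in NC without overlap and lay at the threshold (log2 fold change -0.25, SE 0.06, edgeR adjusted p = 0.0507). It was called lower with upper-quartile factors (adjusted p = 0.0352), library totals only (0.0327), a robust edgeR fit (0.0452) and a minimum mean of 1 CPM (0.041). STXBP5 (tomosyn), an inhibitor of complex assembly and the syntaxin-binding gene with the highest level per kilobase, was at 159 and 153 CPM in SPNS2 and 165 and 170.5 CPM in NC (log2 fold change -0.10, SE 0.059, edgeR adjusted p = 0.288). STXBP4 and STXBP6 had log2 fold changes of 0.15 and 0.20, and STXBP2 had 13 and 5 counts in SPNS2 and 1 and 12 counts in NC, all with overlapping groups.

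STX2, STX10 and STX12, of the plasma membrane, trans-Golgi network and recycling endosomes, had log2 fold changes of 0.32, 0.31 and 0.26, with groups that did not overlap and edgeR adjusted p of 0.0719, 0.143 and 0.0829. STX7 and STX8, of late endosomes, and STX18, of the endoplasmic reticulum, had -0.024, -0.028 and -0.18 with overlapping groups. For others the libraries of a group differed widely. STX6, of the trans-Golgi network, was at 51.3 and 21.3 CPM in SPNS2 and 51.9 and 15.4 CPM in NC, a 2.41-fold difference within SPNS2 and a 3.37-fold difference within NC (log2 fold change 0.11, SE 0.71). Its sign turned without NC replicate 2 (-0.52) and without SPNS2 replicate 1 (-0.65). STX5, of transport between endoplasmic reticulum and Golgi, was at 60.5 and 37.4 CPM in SPNS2 and 66.5 and 48.7 CPM in NC (log2 fold change -0.24, SE 0.28), and its sign turned without NC replicate 1 (0.0054), without SPNS2 replicate 2 (0.071) and with the neighbours' median taken out (0.13). STX3, a plasma membrane syntaxin of epithelia, was at 39.9 and 71.2 CPM in SPNS2 and 48.9 and 31.4 CPM in NC (log2 fold change 0.47, SE 0.36). STX16 was at 58.2 and 114 CPM in SPNS2 and 45.6 and 54.2 CPM in NC (log2 fold change 0.79, SE 0.34, edgeR adjusted p = 0.174), and it was called higher without SPNS2 replicate 1. It overlaps the read-through gene STX16-NPEPL1, and their summed counts were 1813 and 4156 in SPNS2 and 1735 and 2133 in NC. STX11, which serves granule release in lymphocytes, had 21 and 19 counts in SPNS2 and 90 and 49 counts in NC (log2 fold change -1.76, SE 0.46, edgeR adjusted p = 0.0596), without overlap but not called.

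The called members lie on 11 chromosomes. The median of the neighbours ranged from -0.42 to 0.22 over the 50 tested members. All 18 called members were farther from 0 than this median. Their calls made that likely beforehand, so it is no test of a regional change. With the neighbours' median taken out, 3403 genes were called in place of 4171, and among the members 9 were called higher and 6 lower. Besides SYT7 and VAMP1, the calls of SNAP25 (log2 1.68, edgeR adjusted p = 0.0564) and RIMS1 (edgeR adjusted p = 0.0521) were lost.

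**Figure D4:**
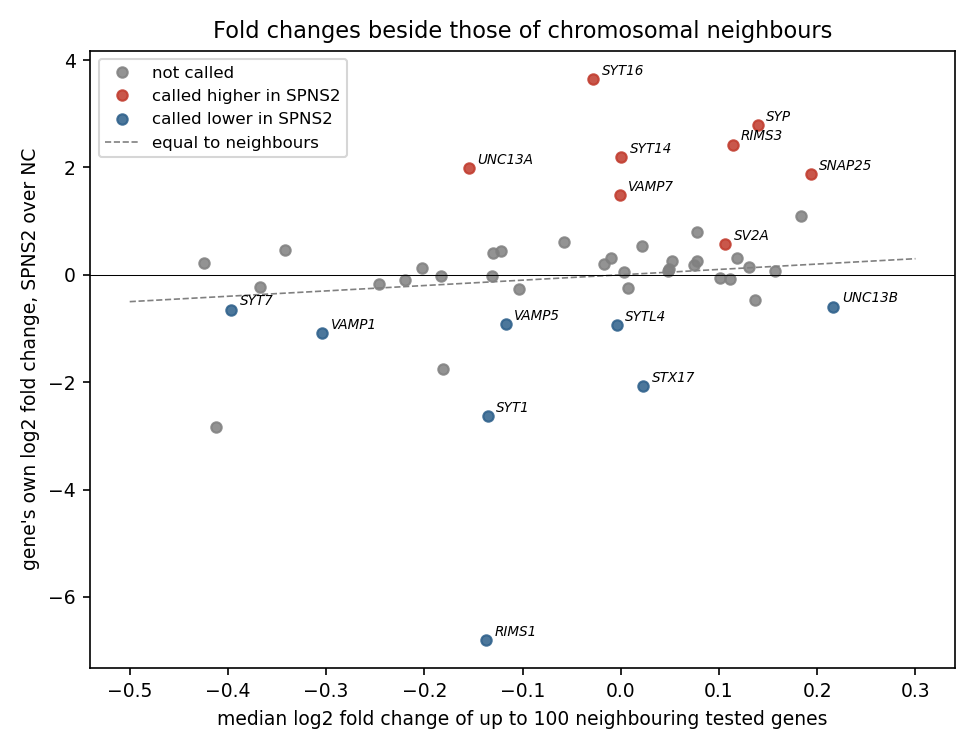
Log2 fold change of 48 of the 50 tested members (vertical axis) beside the median log2 fold change of the nearest tested genes on the chromosome, 50 on either side where there are as many (horizontal axis), with a dashed line for equal values. SYT16, SYT14 and VAMP7 stand above neighbourhoods near 0, and SYT7 has the most negative neighbourhood of the called members; the position of RIMS1, with 0 counts in SPNS2, depends on the fitting constant.

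Of 76 further docking and fusion genes outside the symbol rule, 68 were tested, and 8 rose and 14 fell by edgeR. Those called were 32.4% of the 68, against the 23.4% called among all tested genes (12.1% higher and 11.3% lower), with a median log2 fold change of -0.076 over the 68. That share includes genes that reached the count minimum in both libraries of only 1 group. CADPS reached it through SPNS2, and FER1L6, SYNGR1 and ESYT3 through NC. Whether they were tested thus rested on the group where they were higher. CADPS, which primes dense-core vesicles, had 315 and 402 counts in SPNS2, against 4 and 14 counts in NC (log2 fold change 5.33, SE 0.52, edgeR adjusted p = 0.00619). SEC22B, a SNARE of transport from endoplasmic reticulum to Golgi, was at 413 and 406 CPM in SPNS2, against 239 and 241 CPM in NC (log2 fold change 0.77, SE 0.049, edgeR adjusted p = 0.00273). The ferlin FER1L6 had 4 and 2 counts in SPNS2, against 1413 and 1534 counts in NC (log2 fold change -8.84, SE 0.26, edgeR adjusted p = 0.000877). In these 3 genes, as in the next 2, the groups lay far apart and the calls held with each library left out. The size rested on single libraries in CADPS, with a log2 fold change of 6.44 without NC replicate 2 and 4.73 without NC replicate 1, and in FER1L6, with -9.45 without SPNS2 replicate 1. The vesicle protein SYNGR2 fell to 7.21 and 5.42 CPM in SPNS2, against 33.3 and 29.8 CPM in NC (log2 fold change -2.32, SE 0.19, edgeR adjusted p = 0.00423). RAB27B, a small GTPase of secretory granules, fell to 145 and 142 CPM in SPNS2, against 412 and 373 CPM in NC (log2 fold change -1.45, SE 0.072, edgeR adjusted p = 0.00179). PPFIA3, EXOC4, PPFIA2 and RAB3B were also called higher, with log2 fold changes of 1.02, 0.69, 0.68 and 0.45. SYNGR1, ESYT3 and PCLO were called lower, with -4.71, -2.72 and -2.65. SYNGR1 had 4 and 0 counts in SPNS2, against 66 and 48 counts in NC, and its log2 fold change was -3.70 without SPNS2 replicate 2 and -8.84 without SPNS2 replicate 1, where the remaining SPNS2 count of 0 leaves the fitted value to the fitting constant. PCLO had 17 and 49 counts in SPNS2, against 200 and 221 counts in NC, and -2.11 without SPNS2 replicate 1 and -3.53 without SPNS2 replicate 2. ESYT3 ranged from -3.12 without NC replicate 2 to -2.18 without NC replicate 1. Each of these 7 calls was lost without at least 2 of the 4 libraries, taken 1 at a time. RAB3B was lost without every library but SPNS2 replicate 1, EXOC4 without every library but NC replicate 1, SYNGR1 without every library but SPNS2 replicate 1, and PCLO without either NC library. PPFIA3, PPFIA2 and ESYT3 were lost without any of the 4.

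Markers of neurons and of hormone-secreting cells were measured beside these genes. Of 10 neuron markers, RBFOX3, ELAVL3, ELAVL4 and STMN2 had no counts in any library. DCX had 0 and 0 counts in SPNS2 and 2 and 10 counts in NC. NEFL had 8 and 7 counts in SPNS2 and 2 and 3 counts in NC, and neither was tested. SLC17A7 was not called, at 0.497 ± 0.0599 CPM in SPNS2 and 0.731 ± 0.0251 CPM in NC (edgeR adjusted p = 0.41). MAP2 rose, at 1.6 ± 0.747 CPM in SPNS2 and 0.244 ± 0.00835 CPM in NC, and GAD1 fell, at 0.632 ± 0.251 CPM in SPNS2 and 3.3 ± 0.974 CPM in NC. The summed level of the list was 146 and 153 CPM in SPNS2 and 74.7 and 122 CPM in NC, nearly all of it TUBB3, which was not called (edgeR adjusted p = 0.156). Of 8 genes of secretory granules, CHGA and INSM1 had no counts. SCG5 rose, at 117 ± 3.37 CPM in SPNS2 and 29.3 ± 0.768 CPM in NC, and SCG2 rose, at 6.2 ± 0.926 CPM in SPNS2 and 0.727 ± 0.19 CPM in NC. PCSK1 was not called, at 30.7 ± 3.17 CPM in SPNS2 and 22.2 ± 0.955 CPM in NC (edgeR adjusted p = 0.0592). CHGB, SCG3 and PCSK2 had at most 7 counts in a library. The summed level of that list was 154 and 153 CPM in SPNS2 and 53.5 and 51.3 CPM in NC, most of it SCG5. Of 9 glioma and astrocyte markers, VIM and SLC1A3 rose and NES fell, with the levels given above. Of 6 markers of other cells, PECAM1 rose and CD68 fell, and their summed level was 82.5 and 72.7 CPM in SPNS2 and 133 and 115 CPM in NC. The part of these markers in the results on the members was not tested.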

How the data were processed

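RNA was sequenced from 4 U118-MG libraries, 2 in each group. The authors deposited a table of raw read counts per gene. Per the submitters' processing notes, hg38 was the build, and the tools were HISAT2 2.2.1, Trim Galore 0.6.9 and featureCounts 0.3. Which annotation, strand setting and multiple-match rule were used is not stated here. The table held 61806 genes after 1 row without counts was dropped, and filterByExpr (minimum count 10, minimum total 15) kept 17853. The test was edgeR 4.0.16 (R 4.3.3), quasi-likelihood, two-sided, with TMM scaling, group as the only term and Benjamini-Hochberg adjustment over all tested genes. The fit was tested on simulated counts. Positions and exon lengths are from GENCODE 29, which uses the same assembly, with 17382 tested genes matched by Ensembl ID. Library pairs within a group varied beyond counting error (chi-square over degrees of freedom 25.2 in SPNS2 and 20.4 in NC).

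Alternatives were DESeq2 1.42.0, limma-voom (limma 3.58.1), a robust edgeR fit, other scaling factors, other count minimums, a replicate block, each library left out, and removal of the median of the 50 tested genes on either side. The text names SPNS2, fixed sets of 12 neuronal and 10 constitutive fusion genes, up to 15 called members in each direction, the member with the highest level per kilobase in each family and up to 6 called further genes in each direction. Other members are given to account for those taken by the rule, and some items are not reported here. The members, lists and tests were chosen with earlier results of these data known.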

Additional observations from a re-analysis of the deposited data

How the results depend on the processing

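With each library left out, called genes ranged from 1512 to 2039 (4171 with all libraries), members called higher from 6 to 7 (10) and lower from 2 to 4 (8), and further docking genes called higher from 3 to 4 (8) and lower from 4 to 8 (14). A lone library is then assumed to vary like the other group. With the replicate number as a block, 1976 genes were called, with 8 members higher and 3 lower and 4 further genes higher and 7 lower. Over all tested genes, same-numbered libraries had deviations with a correlation of -0.06, and whether a pairing affected some of the genes was not tested. The block kept 11 of the 18 member calls. SYT16, SYT14, VAMP7, SYT1 and STX17 were called in all 14 alternatives, and none of the 18 called members changed sign in those run. DESeq2 called more genes overall (5039) and 11 members higher and 10 lower, adding SYN3, STX11 and VAMP4. Signs were followed for the genes named by the sets and limits above, not for every member or further gene. Among those followed, signs turned only in genes that were not called. VAMP3 turned with upper-quartile factors (-0.00060) and library totals (-0.010), and STXBP5 with the neighbours' median removed (0.12). STX5 turned over the libraries left out (-0.61 to 0.071, with 0.0054 without NC replicate 1) and with the neighbours' median removed (0.13). STX6 turned over the libraries left out (-0.65 to 1.24, with -0.52 without NC replicate 2). The cause was not tested. The 25 untested members, RIMS1 and RIMS3 had few or no counts, and whether they are expressed below this depth was not tested.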
